A study of Saccharomyces cerevisiae with 14 samples.

Results

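The transcripts described here are those of 10 nuclear genes that encode the folding machinery of the mitochondrial matrix and the import motor attached to it, taken by systematic name from a table of 7122 genes. They comprise the Hsp70 proteins SSC1, SSQ1 and ECM10, their co-chaperones MGE1 and MDJ1, the chaperonin genes HSP60 and HSP10, the disaggregase gene HSP78, and the import motor genes TIM44 and PAM18. All 10 were measured in each of the 11 RNASeq libraries of the chaperone-enriched strains (ChES) of budding yeast, and all 10 passed the filter on low values (5 normalized counts on average). The question of the study was how cells respond when a chaperone is enriched in one compartment, and oe SSC1 is the strain labelled for a gene of the machinery described here.

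The libraries fell into 4 groups of one strain background, Saccharomyces cerevisiae Y258, which derives from S288C. There were 3 libraries labelled oe SSC1 (mitochondrial Hsp70), 3 of oe LHS1 (an Hsp70 of the endoplasmic reticulum), 3 of oe TCP1 (a subunit of the cytosolic chaperonin) and 2 of oe EGD2 (the alpha subunit of NAC, the complex that meets nascent chains at the ribosome). By the study's methods, the overexpression strains were purchased and grown on -URA medium, and expression came from plasmids. The methods name no change to the chromosomal copy of the chaperone gene. If that copy is intact, the reads of such a gene would be the sum of both copies. In the libraries labelled oe SSC1 the transcripts, set against the other overexpression strains, went against that label. SSC1 was not raised above those strains in 2 of the 3, while HIP1, a gene outside the machinery, was raised in all 3. The study reported Ssc1 protein as enriched in its strain by flow cytometry, relative to the endogenous level. Its methods state that the RNASeq data too bore out the overexpression of each chaperone. Protein was not measured here. Which gene the plasmid in these 3 libraries carried was not tested, and every value given for them is one of libraries labelled oe SSC1. The labels give exponential cultures with 2% glucose, whereas the study's methods describe plasmid induction with 2% galactose in place of glucose and harvest after the diauxic shift. The methods name biological triplicates and state that outlying replicates were removed, but the labels do not tie a library to a culture, so p-values measure the spread between these libraries. The 3 control libraries with an empty vector are not analysed here, and every comparison below is between the overexpression strains.

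Nearly all mitochondrial proteins are made in the cytosol and enter the organelle unfolded, through the TOM channel of the outer membrane and the TIM23 channel of the inner membrane. On the matrix side, Tim44 holds the Hsp70 Ssc1 at the channel exit, the J-protein Pam18 triggers its ATPase, and cycles of binding pull the chain inward. Mge1 then exchanges the nucleotide, Mdj1 directs Ssc1 to folding, the Hsp60 barrel with its Hsp10 lid folds part of the imported proteins, and Hsp78 rescues aggregated ones. Ssq1 is a specialised Hsp70 for iron-sulfur cluster transfer, and Ecm10 is a close relative of Ssc1. Several of these genes are classical heat shock genes: Hsf1 binds inverted repeats of GAA, and Msn2 and Msn4 bind the stress response element CCCCT.

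Upstream sequence was read from the RefSeq R64 genome to show which members carry these letters, because some libraries described below differed strongly in their heat shock genes. A heat shock element of 3 units was searched as GAANNTTCNNGAA or TTCNNGAANNTTC on both strands in the 500 bases before the start codon. It was present for 3 of the 10 members, HSP60, HSP10 and HSP78, against 89 of 6006 genes (1.48%). The stress response element was searched as CCCCT, or AGGGG on the other strand, and was present for SSC1, ECM10, MDJ1 and HSP78, against 34.1% of genes. The stretches below are from the minus strand, which is the coding strand of these genes. They show HSP60 at chrXII:665188-665224, HSP10 at chrXV:370980-371016, HSP78 at chrIV:974363-974502 and MDJ1 at chrVI:106565-106620, with the units of a heat shock element of 3 units and each CCCCT or AGGGG in capitals.
HSP60: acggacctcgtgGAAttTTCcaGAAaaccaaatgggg
HSP10: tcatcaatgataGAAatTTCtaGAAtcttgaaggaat
HSP78: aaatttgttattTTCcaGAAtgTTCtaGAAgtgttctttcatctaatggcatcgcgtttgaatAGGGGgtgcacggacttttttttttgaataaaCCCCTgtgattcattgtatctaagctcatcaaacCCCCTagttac
MDJ1: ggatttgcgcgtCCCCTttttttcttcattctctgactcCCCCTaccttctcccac

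The first 3 stretches overlap no annotated gene, and that of MDJ1 lies within the annotated reading frame YFL015C. HSP60 and HSP10 share the same 3-unit form, which begins 210 and 160 bases before the respective start codon. HSP78 has 2 overlapping 3-unit matches, which make a run of 4 units, and 3 matches to the stress response element downstream of it. MDJ1 has 2 matches to CCCCT and no heat shock element of 2 or 3 units. A shorter element of 2 units (GAANNTTC or TTCNNGAA) was present for HSP60, HSP10, HSP78 and TIM44, against 35.2% of genes, so that this looser match and CCCCT are common upstream of any gene. A match is a description of the letters only. For comparison, 9 of 16 cytosolic heat shock genes had the 3-unit element, 15 had the 2-unit element and 6 had the stress response element.

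Levels were compared between genes as normalized counts per kilobase of coding length, averaged over the 11 libraries. HSP10 stood highest at 17290, followed by SSC1 at 14986, HSP78 at 11430, HSP60 at 6565 and MDJ1 at 5319. The import motor genes and the nucleotide exchange factor came next, with MGE1 at 2461, TIM44 at 2231 and PAM18 at 1363. SSQ1 stood at 646 and ECM10 at 216, the only neighbours in this order whose ranges did not overlap (386 to 995 against 169 to 316). The ranges of all other neighbours overlapped, so that HSP10, SSC1 and HSP78, for example, cannot be ordered from library to library. On this scale the 3 Hsp70 genes were thus far apart, with SSC1 above SSQ1 and ECM10 in every library.

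The 3 Hsp70 coding sequences are similar, with 75.9% identical bases between SSC1 and ECM10 and 61.8% between SSC1 and SSQ1. None of the stretches of 50 bases (the read length) in the coding sequence of any member occurs a second time in the genome, on either strand. In the RefSeq annotation of R64, no gene overlaps a member, and each member has 1 coding exon. Counting without strand thus does not mix them with a neighbouring reading frame of that annotation. Of the 7122 genes counted, 6045 matched R64, and the others were not checked for overlap. The lowest number of reads behind a value was 264, for ECM10, which gives a counting error of 6.15%, and counting error was lower for all other members.

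SSC1 (YJR045C, chromosome X from 519638 to 521602 in R64) encodes the main Hsp70 of the matrix. It had 30045, 82518 and 11336 normalized counts in replicates 1, 2 and 3 labelled oe SSC1. In oe LHS1 it had 31699, 32390 and 30773, in oe TCP1 26461, 19600 and 14940, and in oe EGD2 24453 and 19700. The libraries labelled oe SSC1 thus held both the highest and the lowest SSC1 level of the series, and only 1 of the 3 was above every library of the other strains. Replicate 1 lay within the range of the oe LHS1, oe TCP1 and oe EGD2 libraries and replicate 3 below it. On the log2 scale the libraries labelled oe SSC1 averaged 0.33 above the other 8 libraries (14.89 ± 1.43, SD, n = 3, against 14.56 ± 0.40, SD, n = 8), and a two-sided exact permutation test over the 11 libraries gave p = 0.533. The smallest p this test can give is 0.00606. Without oe SSC1 replicate 2 the difference was -0.39, and with any one library left out it lay between -0.39 and 1.04 (exact p 0.0889 to 0.633). An SSC1 transcript above the other strains was thus seen in 1 of the 3 libraries, and a direction drawn from this group is one of libraries labelled oe SSC1. In bulk cultures, a change in each cell and a change in the share of cells that express a gene cannot be told apart.

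The genes that name the other 3 strains were all highest in their own strains. LHS1 had 23647 to 60337 normalized counts in oe LHS1 against 1344 to 2211 elsewhere, and TCP1 had 22042 to 47002 in oe TCP1 against 1726 to 2577. EGD2 had 24039 and 17746 in oe EGD2 against 6127 to 16374. Its difference from the other strains was 1.09 on the log2 scale and was not called (adjusted p 0.707 by limma), whereas LHS1 and TCP1 were called in theirs. The gene that set the libraries labelled oe SSC1 apart was HIP1 (YGR191W), a high-affinity histidine permease, with 31571, 46307 and 27237 normalized counts there against 1564 to 3620 in the other 8 libraries. HIP1 is not a member and was singled out after its values were seen. It was the only gene called by limma in these 3 libraries against the other strains, and whether these libraries hold a plasmid with HIP1, with SSC1 or with neither was not tested. The galactose-induced genes GAL1, GAL10 and GAL7 ranged from 237 to 836, from 167 to 733 and from 42.0 to 417. URA3, the plasmid marker, ranged from 113922 to 367819. Which carbon source these cultures had was not tested.

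**Figure D1:**
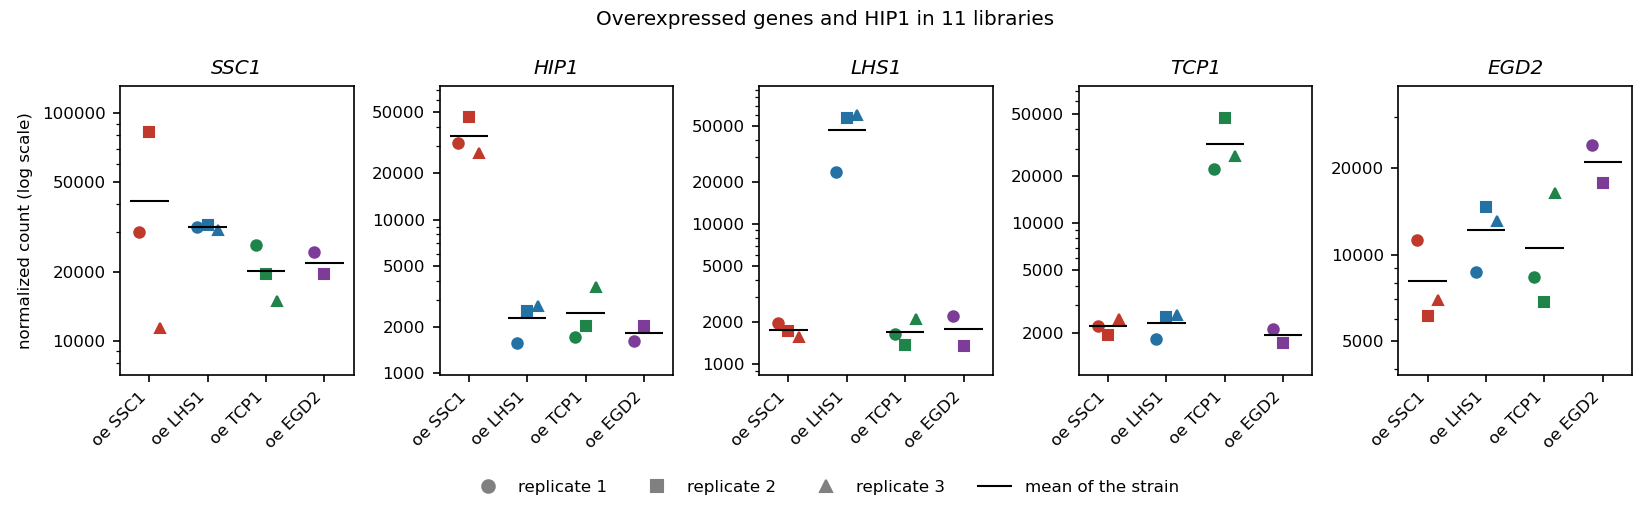
Normalized counts (log scale) of SSC1, of HIP1 and of the genes that name the other 3 strains in each library, by strain, with a line at the strain mean and a different symbol for each replicate number. LHS1, TCP1 and EGD2 are highest in their own strains, while SSC1 in the oe SSC1-labelled libraries spreads from 11336 to 82518 and HIP1 stands at 27237 or more in those 3 libraries alone.

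MDJ1 and HSP78 varied most among the members, and they varied together. MDJ1 (YFL016C, chromosome VI from 104701 to 106236), the J-protein that works with Ssc1 in folding, had 9382, 23200 and 3348 normalized counts in the oe SSC1-labelled libraries. In oe LHS1 it had 10674, 7215 and 5409, in oe TCP1 6246, 6920 and 1846, and in oe EGD2 8349 and 7273. MDJ1 thus peaked in the same library as SSC1 and was lowest in oe TCP1 replicate 3, 12.6-fold below its peak. HSP78 (YDR258C, chromosome IV from 971808 to 974243), the ClpB-type disaggregase of the matrix, had 28992, 71668 and 9299 normalized counts in the oe SSC1-labelled libraries. It had 45543, 18300 and 17249 in oe LHS1, 28468, 26513 and 2121 in oe TCP1, and 32522 and 25597 in oe EGD2. Its span was 33.8-fold, and the SD of its log2 level exceeded that of 93.7% of the 6592 genes tested. Without oe SSC1 replicate 2 and oe TCP1 replicate 3, which hold its highest and lowest values, the span was 4.90-fold for HSP78 and 3.19-fold for MDJ1. The ranges of all 4 strains overlapped for HSP78, and for MDJ1 all did except oe TCP1 (1846 to 6920) and oe EGD2 (7273 to 8349).

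The chaperonin genes peaked in the same library and then followed an order unlike that of SSC1 and MDJ1. HSP60 (YLR259C, chromosome XII from 663284 to 665002), the barrel-forming subunit, had 7982, 28591 and 8913 normalized counts in the oe SSC1-labelled libraries. It had 8235, 9871 and 8976 in oe LHS1, 6196, 15480 and 5656 in oe TCP1, and 8190 and 16051 in oe EGD2. After oe SSC1 replicate 2, the next highest were replicate 2 of oe EGD2 and replicate 2 of oe TCP1, in which SSC1 stood at -0.43 in both and MDJ1 at 0.011 and -0.060 from its median on the log2 scale. HSP10 (YOR020C, chromosome XV from 370524 to 370844), the co-chaperonin lid, had 5264, 10508 and 3948 normalized counts in the oe SSC1-labelled libraries. It had 5573, 4991 and 5283 in oe LHS1, 2989, 6744 and 3442 in oe TCP1, and 5025 and 7286 in oe EGD2. HSP10 had the same 3 highest libraries as HSP60, with a smaller span of 3.52-fold against 5.06-fold.

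**Figure D2:**
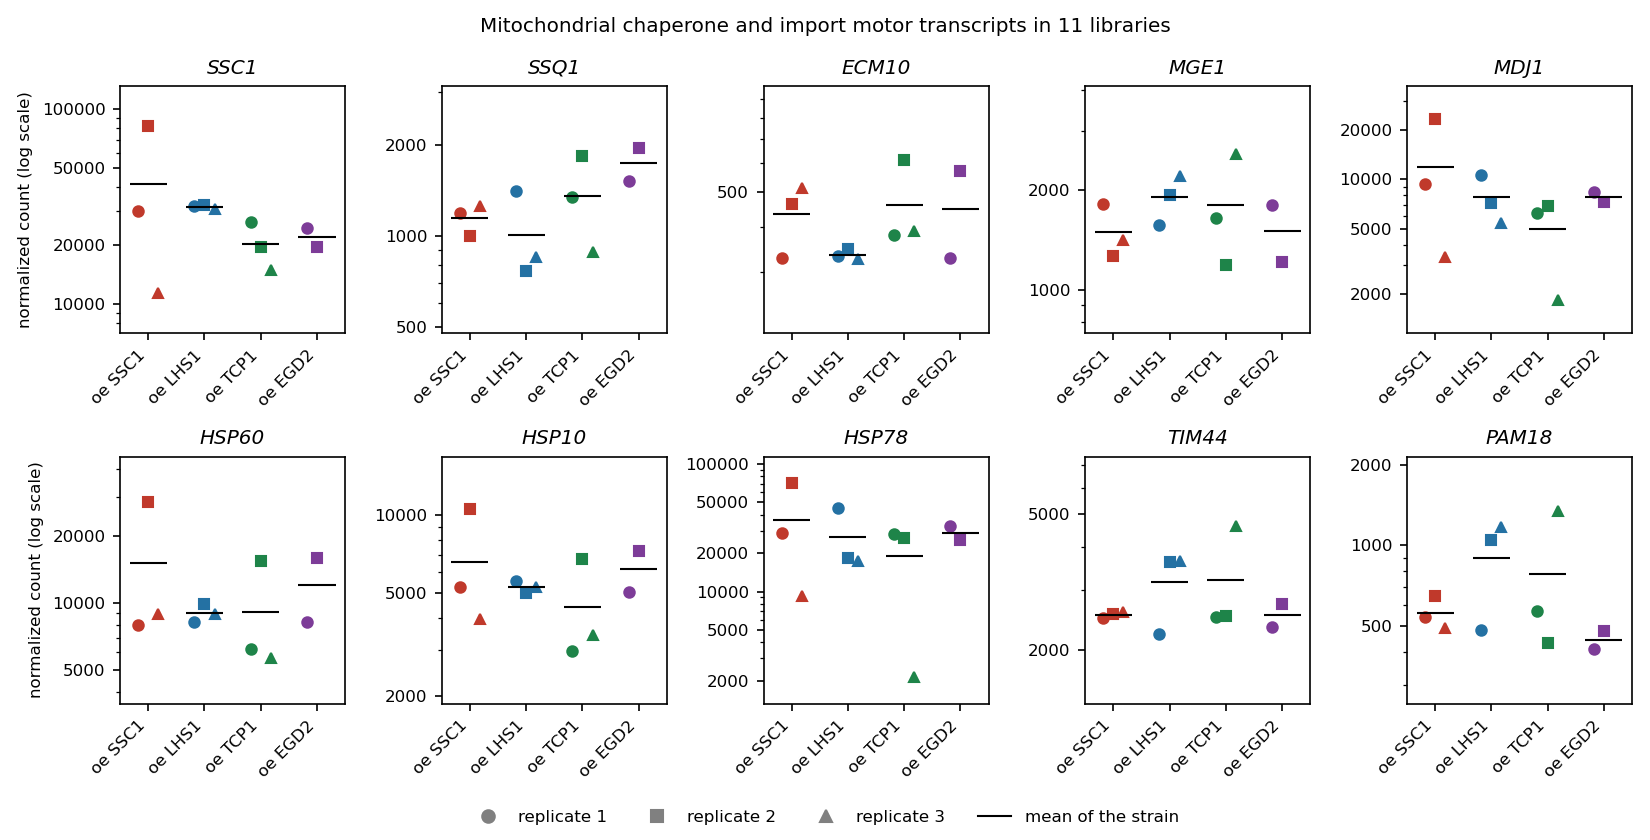
Normalized counts (log scale, each panel with its own range) of the 10 genes in each of the 11 libraries, by strain, with a line at the strain mean and a different symbol for each replicate number. The library oe SSC1 replicate 2 is the highest point for SSC1, MDJ1, HSP60, HSP10 and HSP78.

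TIM44, PAM18 and MGE1 did not peak in that library. TIM44 (YIL022W, chromosome IX from 311165 to 312460), the anchor of the motor, had 2473, 2554 and 2586 normalized counts in the oe SSC1-labelled libraries. It had 2222, 3613 and 3659 in oe LHS1, 2502, 2504 and 4628 in oe TCP1, and 2333 and 2726 in oe EGD2. Its 3 highest libraries were oe TCP1 replicate 3 and oe LHS1 replicates 3 and 2, and the other 8 lay between 2222 and 2726. PAM18 (YLR008C, chromosome XII from 165577 to 166083), the J-protein of the motor, had 537, 649 and 490 normalized counts in the oe SSC1-labelled libraries. It had 482, 1046 and 1170 in oe LHS1, 568, 430 and 1344 in oe TCP1, and 409 and 477 in oe EGD2. PAM18 shared the 3 highest libraries of TIM44, at 1046 normalized counts or more where the other 8 were at 649 or less. MGE1 (YOR232W, chromosome XV from 774573 to 775259), the nucleotide exchange factor, had 1808, 1267 and 1413 normalized counts in the oe SSC1-labelled libraries. It had 1566, 1926 and 2198 in oe LHS1, 1650, 1184 and 2572 in oe TCP1, and 1796 and 1215 in oe EGD2. Its 3 highest libraries were again oe TCP1 replicate 3 and oe LHS1 replicates 3 and 2, and its spans, like that of TIM44, were narrow (2.17-fold and 2.08-fold).

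SSQ1 and ECM10, the less abundant Hsp70 genes, peaked neither in oe SSC1 replicate 2 nor where TIM44 did. SSQ1 (YLR369W, chromosome XII from 859552 to 861525) had 1194, 997 and 1258 normalized counts in the oe SSC1-labelled libraries. It had 1414, 762 and 850 in oe LHS1, 1348, 1841 and 882 in oe TCP1, and 1520 and 1964 in oe EGD2. The 3 libraries in which TIM44, PAM18 and MGE1 were highest were the 3 lowest for SSQ1, an arrangement also found for 15.1% of all genes tested. ECM10 (YEL030W, chromosome V from 94644 to 96578) had 330, 463 and 512 normalized counts in the oe SSC1-labelled libraries. It had 332, 348 and 327 in oe LHS1, 381, 612 and 391 in oe TCP1, and 328 and 570 in oe EGD2. Its span of 1.87-fold was the smallest of the 10, and it was highest in oe TCP1 replicate 2 and oe EGD2 replicate 2. These were also the 2 highest libraries for SSQ1, and for HSP60 and HSP10 they came next after oe SSC1 replicate 2.

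Between strains, none of the 10 genes passed the test. In the fit by limma over 6592 genes with Benjamini-Hochberg adjustment, 0 of 10 members were called in the oe SSC1-labelled libraries against the mean of the other 3 strains, where 0.0152% of all genes (HIP1 alone) were called. The count was also 0 of 10 for oe LHS1 (0.0152% of all genes, LHS1 alone), oe TCP1 (0.0152%, TCP1 alone) and oe EGD2 (0%, with 194 genes at an unadjusted p under 0.05 by limma, 0 called by edgeR and 2 by DESeq2). The F test among the 4 strains called 0 of 10 members and 0.0455% of all genes. At an unadjusted p under 0.05 the count of members was likewise 0 in each of these comparisons by limma, edgeR and DESeq2. With so few genes called among all those tested, a count of 0 says little about the members themselves, and the intervals below give what sizes of difference remain possible.

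In the oe SSC1-labelled libraries, SSC1 was 0.34 above the mean of the other 3 strains on the log2 scale (SE 0.55, 95% interval -0.89 to 1.57). MDJ1 was 0.51 above (interval -0.79 to 1.81), HSP60 0.42 (-0.63 to 1.48), HSP78 0.41 (-1.53 to 2.35) and HSP10 0.24 (-0.53 to 1.02), and limma's adjusted p was 0.9999 for each. Leaving out oe SSC1 replicate 2 turned the direction of all 5, to -0.38 for SSC1, -0.17 for MDJ1, -0.16 for HSP60, -0.30 for HSP78 and -0.16 for HSP10. These 5 positive differences thus rest on one library. The differences of the other 5 members were smaller, at -0.19 for PAM18, -0.18 each for SSQ1, MGE1 and TIM44 and 0.09 for ECM10, and the interval of none of these 5 reached beyond -1.01 or 0.62.

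In oe LHS1, PAM18 was 0.60 above the mean of the other strains (interval -0.21 to 1.42), SSQ1 -0.50 (-1.09 to 0.09) and ECM10 -0.38 (-0.91 to 0.15), each with an adjusted p of 0.677 by limma. In oe TCP1, HSP78 was at -1.19 (-3.13 to 0.75) and MDJ1 at -0.90 (-2.20 to 0.39), with an adjusted p of 0.9998 for both. Without oe TCP1 replicate 3 these values were 0.05 and -0.29, so that the size of both and the direction of HSP78 rest on that library. In oe EGD2, where 2 libraries set the precision, SSQ1 was at 0.61 (-0.07 to 1.29), PAM18 at -0.63 (-1.57 to 0.31) and HSP78 at 0.55 (-1.68 to 2.78), with adjusted p of 0.707, 0.707 and 0.847. A 2-fold difference in at least one direction, 1 on this scale, lies inside the interval of SSC1, MDJ1, HSP60 and HSP78 in all 4 comparisons, and these intervals are too wide to call the strains alike.

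**Figure D3:**
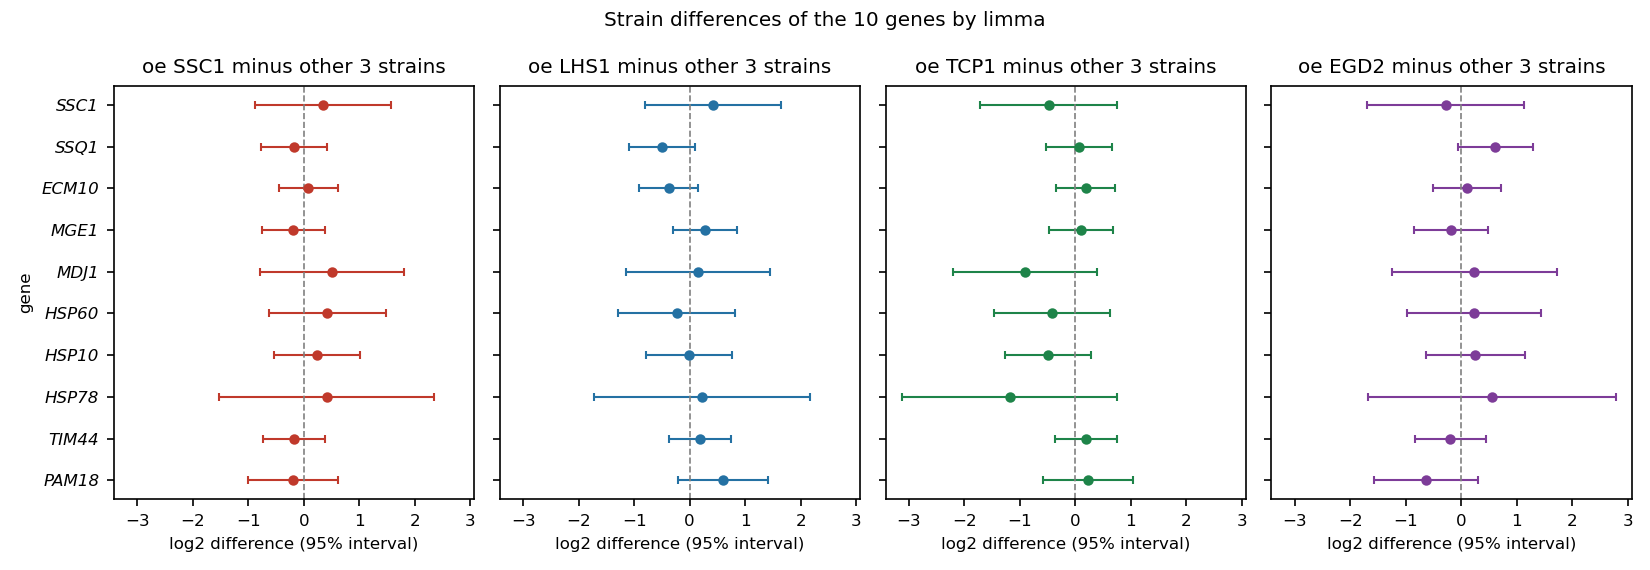
Difference of each strain from the mean of the other 3 strains for each of the 10 genes (log2 scale, points), with 95% intervals from limma (bars). All 40 intervals include 0. In each strain the interval of HSP78 is the widest, and it is widest of all in oe EGD2 (-1.68 to 2.78).

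The spread lay between libraries of one strain, and in the 2 extreme libraries it moved with the cytosolic heat shock genes. Against its own median over the 11 libraries, oe SSC1 replicate 2 was at 1.64 for SSC1, 1.68 for MDJ1, 1.68 for HSP60, 1.43 for HSP78 and 1.00 for HSP10 on the log2 scale. It was the highest library for 5 of the 10 members, against 17.2% of all genes tested. Of a list of 16 cytosolic heat shock genes it was the highest library for 14, with a median of 2.07. The library oe TCP1 replicate 3 was the lowest for 3 members (MDJ1, HSP60 and HSP78), for 15 of the 16 heat shock genes (median -2.61) and for 20.9% of all genes. At the same time it was the highest for MGE1, TIM44 and PAM18, and for 23.5% of all genes. The summed level of the 16 heat shock genes was 1797785 normalized counts in the first of these libraries, 77545 in the second and 233426 to 588893 in the other 9. Their part in the strain differences was not tested.

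In the other libraries the members stood at different distances from these genes. In oe SSC1 replicate 3 the heat shock list stood at a median of -0.68 (range -3.23 to 1.40, with 4 of 16 genes above their medians). SSC1 at -1.22, MDJ1 at -1.11 and HSP78 at -1.51 were below their medians too. HSP60 stood at 0.00 and HSP10 at -0.42 in that library. In oe EGD2 replicate 2 and oe TCP1 replicate 2 HSP60 stood at 0.85 and 0.80 and HSP10 at 0.47 and 0.36. The heat shock list was divided in both, with medians of 0.10 and -0.02 and ranges of -1.51 to 2.51 and -1.49 to 2.35. HSP26, a small heat shock protein, stood at 2.51 and 2.35 there and CPR6 at 1.57 and 1.48, whereas SSA4 stood at -1.51 and -1.49. SSA4, a stress-inducible cytosolic Hsp70 and the most variable gene of the list, had 318510 normalized counts in oe SSC1 replicate 2 and 3635 in oe TCP1 replicate 3. HSC82, a constitutive Hsp90 and the least variable, had 141070 and 21406 in the same libraries.

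**Figure D4:**
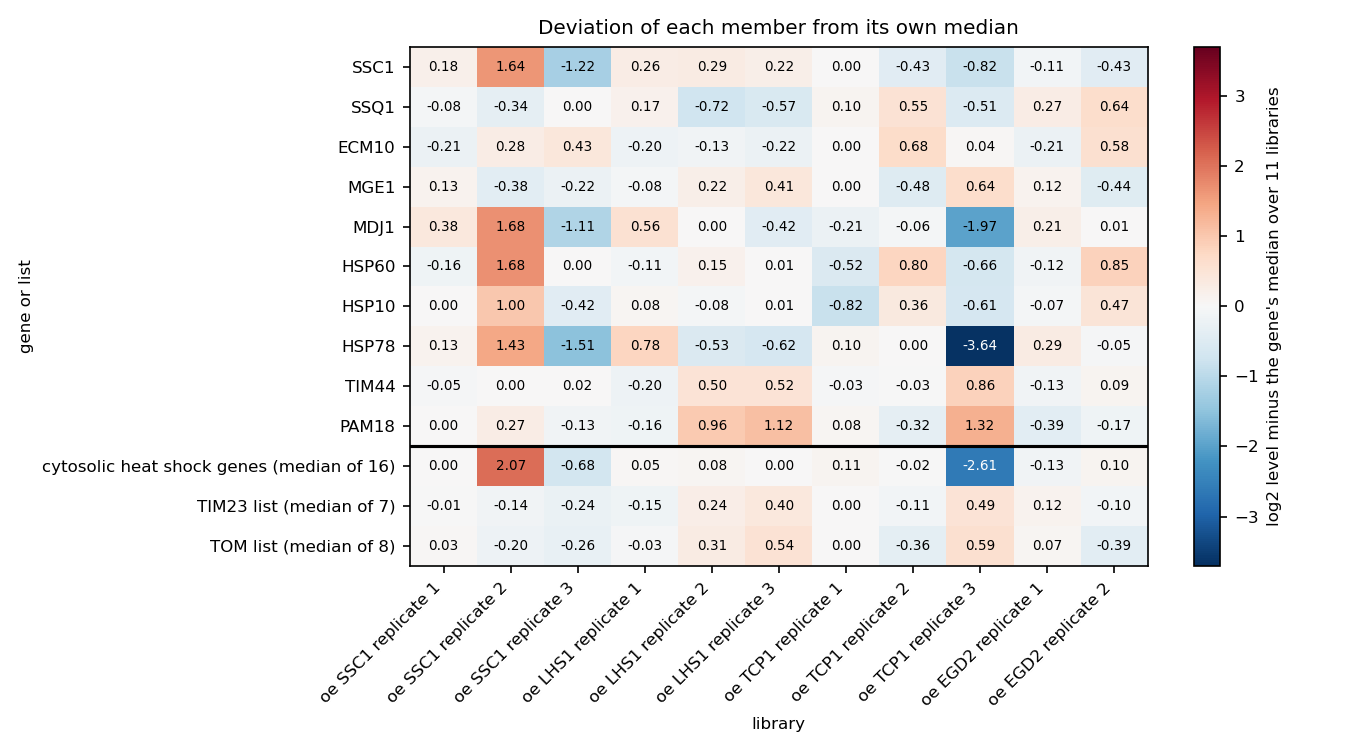
Log2 level of each of the 10 genes minus its median over the 11 libraries (colour and number), with the median of 3 gene lists under the line. The column of oe SSC1 replicate 2 is high for SSC1, MDJ1, HSP60, HSP10, HSP78 and the heat shock list (2.07), and that of oe TCP1 replicate 3 is low for HSP78 (-3.64), MDJ1 (-1.97) and the heat shock list (-2.61) but high for MGE1, TIM44 and PAM18.

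Likeness of pattern was measured as Pearson's r of the log2 levels over the 11 libraries and is given as a description. These libraries share strains and differ in depth, and 2 of them are extreme for the heat shock genes. MDJ1 and HSP78 had r = 0.95, HSP60 and HSP10 0.92 and TIM44 and PAM18 0.94. Without the 2 extreme libraries these pairs stood at 0.92, 0.83 and 0.93. SSC1 had r = 0.85 with MDJ1 (0.72 without the 2 libraries) and 0.53 with HSP60 (-0.33), so that the likeness of SSC1 to the chaperonin rests on them. PAM18 and SSQ1 ran opposite to each other, with r = -0.87 (-0.89 without the 2 libraries). Over all genes tested, 57.2% of the variance between libraries lay on the first principal component. At its ends stood oe LHS1 replicates 2 and 3 (61.9 and 61.2) and replicate 2 of oe EGD2 and of oe TCP1 (-58.2 and -51.4). The 2 libraries left out stood at 45.4 and 33.2, so this axis remained without them. No r was compared with those of other pairs of genes.

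The search for like patterns covered 5633 genes that averaged 100 normalized counts or more, with the members left out. Those most like HSP78 were HSP42 (r = 0.99), a small heat shock protein, HSP104 (0.99), the cytosolic disaggregase related to Hsp78, and APJ1 (0.98), a J-protein. All 3 were lowest in oe TCP1 replicate 3 and highest in oe SSC1 replicate 2, as HSP78 was. Those most like HSP60 were PER33 (0.96), CPR6 (0.96), a cyclophilin that binds Hsp90, and DCK1 (0.92). Those most like SSC1 were YNG2 (0.97), a subunit of the NuA4 acetyltransferase, REB1 (0.97), a general transcription factor, and IML1 (0.96), a subunit of a complex that regulates TORC1. The 3 nearest genes of SSC1 outside the members thus include no chaperone.

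Ratios between partners were taken within a library, where the scaling of the library has no effect. The HSP10 to HSP60 ratio of normalized counts moved least, from 0.368 in oe SSC1 replicate 2 to 0.677 in oe LHS1 replicate 1 (1.84-fold), while the level of HSP60 moved 5.06-fold. On the log2 scale it averaged -1.07 ± 0.43 in the oe SSC1-labelled libraries (SD, n = 3) and -0.89 ± 0.23 in the others (SD, n = 8), with p = 0.364 by a two-sided exact permutation test. The SSC1 to MDJ1 ratio was 3.20, 3.56 and 3.39 in replicates 1, 2 and 3 labelled oe SSC1, although SSC1 itself ranged 7.28-fold across them. In the other 8 libraries it ranged from 2.71 to 8.09, the highest in oe TCP1 replicate 3, and the exact p was 0.558.

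The ratios of SSC1 to the motor genes and to its exchange factor were highest where SSC1 was highest, but did not follow SSC1 throughout. All were lowest in oe TCP1 replicate 3, where TIM44, PAM18 and MGE1 peaked, whereas SSC1 was lowest in oe SSC1 replicate 3. In oe LHS1 replicates 2 and 3, SSC1 stood 0.29 and 0.22 above its median on the log2 scale. The SSC1 to PAM18 ratio there was 31.0 and 26.3, below its median of 45.6. The SSC1 to TIM44 ratio was 32.3 at its highest, in oe SSC1 replicate 2, and 3.23 at its lowest, in oe TCP1 replicate 3 (exact permutation p = 0.4). The SSC1 to PAM18 ratio ranged from 11.1 to 127 (exact p = 0.364) and the SSC1 to MGE1 ratio from 5.81 to 65.1 (exact p = 0.382) between the same libraries. Adjusted over the 5 ratios by Benjamini-Hochberg, the exact p was 0.558 for SSC1 to MDJ1 and 0.5 for each of the others. For SSC1 to MGE1, TIM44 and PAM18 the libraries labelled oe SSC1 averaged 0.54, 0.54 and 0.59 above the others on the log2 scale, and without oe SSC1 replicate 2 these values were -0.30, -0.18 and -0.02.

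**Figure D5:**
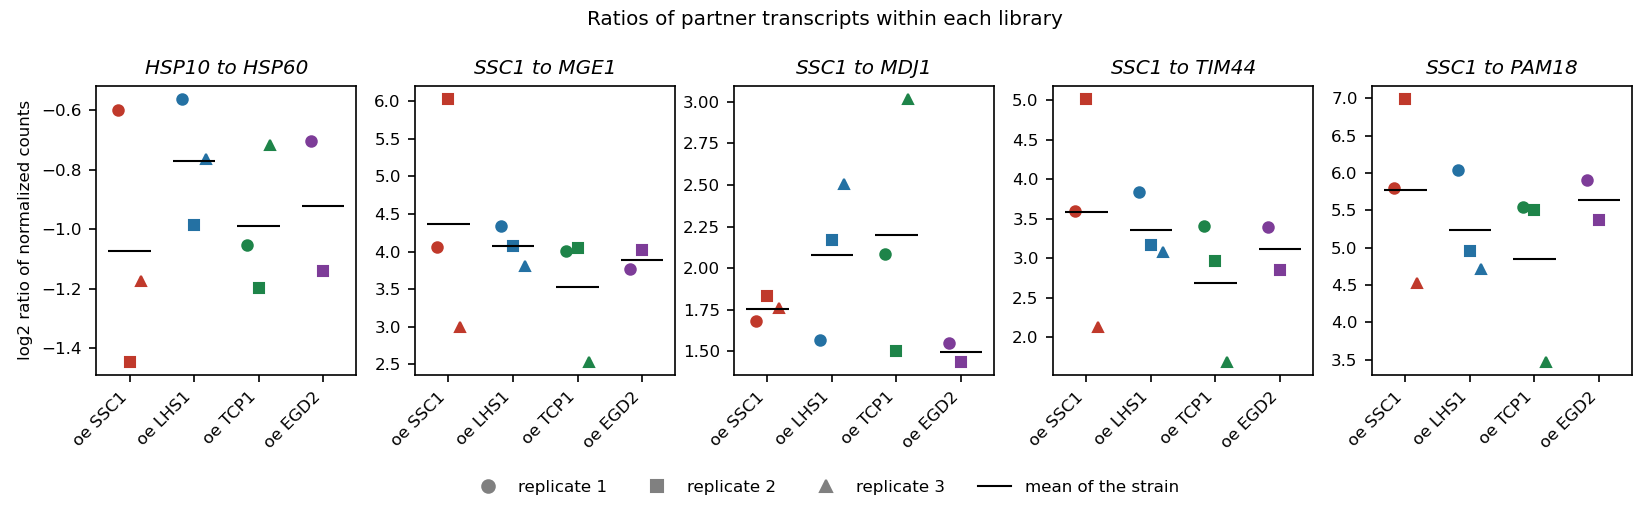
Log2 ratio of normalized counts for 5 partner pairs in each library, by strain, with a line at the strain mean and a different symbol for each replicate number (each panel has its own range). The HSP10 to HSP60 ratio spans less than 1 unit, the 3 libraries labelled oe SSC1 lie close together for SSC1 to MDJ1, and the same 3 libraries spread over the widest range for SSC1 to MGE1, TIM44 and PAM18.

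Many genes of the TIM23, TOM and TIM22 complexes had the same highest libraries as the motor genes. The 3 libraries highest for TIM44, PAM18 and MGE1 (oe TCP1 replicate 3 and oe LHS1 replicates 2 and 3) were also the 3 highest for 4 of 7 further genes of the TIM23 translocase, 6 of 8 genes of the TOM receptors and channel and 5 of 8 genes of the TIM22 carrier translocase with the small TIM chaperones. Together these were 15 of 23 genes (65.2%), against 13.7% of all genes tested and 0 of the 16 heat shock genes. The same 3 libraries had the fewest reads, 10127206 in oe TCP1 replicate 3, and 11199213 and 10357513 in oe LHS1 replicates 2 and 3. The other 8 libraries had 13172452 to 20286329 reads, and the part of depth in the shared peak was not tested. TIM23, the channel subunit, had 4807 normalized counts in oe TCP1 replicate 3, 4406 and 3212 in oe LHS1 replicates 2 and 3, and 1443 to 2702 in the other 8 libraries. TIM10, an intermembrane space chaperone, had 3129, 3448 and 3419 in the same 3 libraries and 928 to 1756 elsewhere. PAM17, a further motor subunit, varied little (822 to 1413). Across lists, TOM6 (409 to 1216) was the most variable and TOM7 (525 to 854) the least variable TOM gene, both small subunits of the channel, and TIM54 (1151 to 2031) was the least variable of the TIM22 list.

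The lists of other steps showed no such shared peak. The 3 libraries were the highest for 0 of 6 genes of outer membrane sorting and the disulfide relay, and for 1 each of 5 presequence peptidase genes, 6 other matrix folding helpers, 6 iron-sulfur cluster genes and 7 protease and prohibitin genes. The SD of log2 levels was lowest for SAM50, the core of the sorting machinery (782 to 1130 normalized counts), PHB2, a prohibitin (1837 to 2636), and ISD11, which stabilises the cysteine desulfurase (938 to 1323). SAM37 (536 to 1409) and PHB1 (1528 to 3538) were the most variable of their lists, as were MAS2, a subunit of the processing peptidase (941 to 2502), and MDJ2, a motor J-protein related to Pam18 (60 to 161). ICP55, an intermediate cleaving peptidase (745 to 1192), and MCX1, a ClpX homologue (800 to 1361), varied least in theirs. ISU1, the scaffold on which clusters transferred by Ssq1 are built, ranged from 1194 in oe LHS1 replicate 3 to 4207 in oe TCP1 replicate 2 and was the most variable of its list.

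None of the 69 genes on these 9 lists was called in any comparison by limma, edgeR or DESeq2, and 0 to 3 of the 69 reached an unadjusted p under 0.05 by limma, 0 to 4 by edgeR and 0 to 5 by DESeq2. In the oe SSC1-labelled libraries, all 16 heat shock genes lay above the mean of the other strains, with a median of 0.60 on the log2 scale against 0.17 for the 10 members and 0.01 for all genes, and in oe TCP1 all 16 lay below, with a median of -0.96 against -0.18 and 0.00. Each of these list differences rests on 1 library. Without oe SSC1 replicate 2, 5 of the 16 lay above with a median of -0.21, and without oe TCP1 replicate 3, 9 of the 16 lay below with a median of -0.053. By edgeR with all libraries, the medians were 0.98 in oe SSC1 and -0.49 in oe TCP1, where 1 of the 16 lay above. The median SD of log2 levels over the libraries was 1.22 for the heat shock list, 0.56 for the members and 0.44 for all genes, and 0.25 to 0.40 for the 8 mitochondrial lists.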

How the data were processed

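RNASeq values were examined for 11 libraries of 4 ChES. The deposited unit is a signal per gene: per the sheet's name, the authors divided counts by DESeq2 size factors. Per the study's methods, the authors mapped single-end reads of 50 bases to sacCer3 (R64) with STAR 2.3.0e and counted Ensembl genes with htseq-count 0.6.0 (minimum quality 10, strand not used). All values were whole multiples of one step per library within 0.01 (100%), which gave 10127206 to 20286329 reads per library. In the table, 4 lines were empty.

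Strains were compared with limma 3.58.1 (R 4.3.3) on log2(normalized count + 1), a scale that understates changes of low genes, for genes averaging 5 or more, at adjusted p under 0.05. Alternatives were edgeR 4.0.16 and DESeq2 1.42.0 on the recovered reads, other pseudocounts (0.5 and 10), filters and scaling, a replicate block and leaving out libraries. Tests were checked on simulated data with a single dispersion and no effect shared within a library, which does not show how they perform on these data. Of 7122 genes, 6045 matched R64 by systematic name. Members and lists were chosen with earlier results of these data known. Named were all members, the genes naming the strains and marker genes, the most and least variable gene of each list, and the 3 genes most like SSC1, HSP60 and HSP78. Replicates of one strain differed by more than sampling noise (chi-square per degree of freedom 11.8 for oe LHS1 replicates 2 and 3, 317 to 853 for the other pairs), so each was kept.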

Additional observations from a re-analysis of the deposited data

How the results depend on the processing

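No member was called under any alternative: other pseudocounts (0.5 and 10), no filter or a mean of at least 50, TMM scaling, edgeR, DESeq2, the replicate block, and each library left out in turn. The number of genes called was unchanged (1, 1, 1 and 0 for oe SSC1, oe LHS1, oe TCP1 and oe EGD2, and 3 among the strains) except by DESeq2 on recovered reads, with 4 for oe SSC1, 3 for oe TCP1 and 2 for oe EGD2. With 1 library left out these counts stayed at 1, 1, 1, 0 and 3. Replicate numbers paired the libraries only in part. Same-numbered deviations correlated from -0.58 to 0.64 (median 0.21, above 0.1 in 8 of 15 pairs). Those with unlike numbers correlated from -0.64 to 0.62 (median -0.14, above 0.1 in 13 of 30 pairs). Of 11 libraries, 8 correlated best with their own number. The replicate block left the counts at 1, 1, 1, 0 and 3, and turned the log2 difference of HSP10 in oe LHS1 (-0.0091) to 0.039 and of MDJ1 and HSP78 in oe EGD2 (0.24 and 0.55) to -0.28 and -0.20.

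Of 1067 values of members and ratios under an alternative, all uncalled, 52 (4.87%) had turned in direction. The median of the cytosolic heat shock genes in oe SSC1 (0.60) turned to -0.21 without oe SSC1 replicate 2, an alternative chosen after seeing the data. By edgeR, MDJ1 and HSP78 stood at -0.013 and -0.027 in oe LHS1, and by DESeq2 HSP78 stood at -0.013. Leaving out oe SSC1 replicate 2 and oe TCP1 replicate 3 together was chosen after seeing the data. It gave -0.44 for SSC1, -0.0049 for ECM10, 0.025 for MGE1, -0.37 for MDJ1, -0.25 for HSP60, -0.20 for HSP10 and -0.71 for HSP78 in oe SSC1, and 0.082 for HSP10 in oe LHS1. In oe TCP1 it gave -0.23 for MGE1, 0.037 for HSP60, 0.28 for HSP78, -0.11 for TIM44 and -0.22 for PAM18. With 1 library left out in turn, the differences in oe SSC1 lay from -0.38 to 1.06 for SSC1, -0.17 to 1.23 for MDJ1, -0.16 to 0.76 for HSP60, -0.16 to 0.55 for HSP10, -0.30 to 1.18 for HSP78 and -0.047 to 0.27 for ECM10. In oe LHS1 they lay from -0.11 to 0.12 for HSP10, -0.23 to 0.47 for HSP78 and -0.10 to 0.39 for MDJ1. In oe TCP1 the range was -0.19 to 0.34 for SSQ1, -0.038 to 0.32 for ECM10, -0.20 to 0.36 for MGE1, -1.83 to 0.046 for HSP78, -0.11 to 0.33 for TIM44 and -0.26 to 0.57 for PAM18. In oe EGD2 it was -0.0013 to 0.46 for MDJ1, -0.29 to 0.51 for ECM10, -0.47 to 0.094 for MGE1, -0.25 to 0.72 for HSP60 and -0.014 to 0.52 for HSP10. By the exact permutation test, SSC1 in oe SSC1 lay from -0.39 to 1.04, the HSP10 to HSP60 ratio from -0.42 to 0.0026, SSC1 to MGE1 from -0.30 to 1.22, SSC1 to TIM44 from -0.18 to 1.26 and SSC1 to PAM18 from -0.019 to 1.21. The cause of these changes, other than the libraries left out, was not tested. With 2 or 3 libraries per strain and no control library analysed here, differences of about 2-fold in the stress-responsive members could not be resolved, though counting error was at most 6.15%.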

Other observations

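The SSC1 to MDJ1 ratio of normalized counts was 3.20, 3.56 and 3.39 in replicates 1, 2 and 3 labelled oe SSC1, whereas the SSC1 to MGE1 ratio was 16.6, 65.1 and 8.02 in the same libraries. This contrast was noticed after the values were seen and was not tested. The libraries oe LHS1 replicates 2 and 3 were closer to each other than any other replicates of one strain, and both were far from oe LHS1 replicate 1 for PAM18 (1046 and 1170 against 482 normalized counts) and TIM44 (3613 and 3659 against 2222).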
